A study of Mus musculus with 18 samples.

Results

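The transcriptome of mouse 3T3-L1 cells was compared between the MCE1 stage, the earlier of both sampled stages of mitotic clonal expansion, and the Control stage. The comparison was made on the 3 MCE1 and 3 Control libraries, 6 of the 18 libraries of the study, and on every gene that reached 1 TPM in at least 3 of these 6 libraries. Of the 25209 gene names in the files, 11605 met that rule. TPM is a level scaled to transcript length and to the library's total, so levels of different genes can be set side by side, but the read depth behind a value is unknown.

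3T3-L1 is an established fibroblast line of mouse embryo origin that can be turned into fat cells. Per the labels' protocols the cells were grown in medium with serum and, 2 days past confluence, were given insulin at 10 µg/mL, dexamethasone at 0.25 µM and IBMX at 0.5 mM for 48 h. Insulin at 5 µg/mL followed. The titles name the groups Control, MCE1, MCE2, Day4, Day6 and Day8, with 3 libraries each, and every group is of the same line with no altered gene. The labels give no hour for MCE1 and do not say whether Control cells had received serum alone or had stopped dividing. They also do not say whether the replicates are separate cultures, so a p-value is set only by the spread among these libraries, which may be technical.

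Each component of the induction mixture has its own receptor and its own set of responding genes. Dexamethasone activates the glucocorticoid receptor, a transcription factor. IBMX blocks phosphodiesterases, so that cAMP builds up and protein kinase A and CREB become active. Insulin at a high dose signals through the insulin and IGF1 receptors to AKT and mTOR. Together they send confluent preadipocytes back into the cell cycle for a few divisions, called mitotic clonal expansion, while C/EBP beta and C/EBP delta prepare the later rise of C/EBP alpha and PPAR gamma, the regulators of the fat cell.

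The libraries carried the markers of a fibroblast in both groups. Vim, the intermediate filament of mesenchymal cells, stood at 5403 ± 55.0 TPM in Control and 3102 ± 60.4 TPM at MCE1 (mean ± SD, n = 3 libraries, as in all values below with ±). Col1a1 (1235 ± 68.9 and 616 ± 27.4 TPM), Col3a1 (453 ± 51.4 and 1158 ± 41.6), Pdgfra (65.4 ± 18.7 and 159 ± 5.55) and Thy1 (302 ± 4.67 and 122 ± 7.64) were present as well. Dlk1, a preadipocyte marker, was not called (22.6 ± 9.71 and 23.8 ± 2.28 TPM). Of the fat cell markers, Adipoq was listed at 0 in each Control library and at 0.622, 1.98 and 0.645 TPM at MCE1, and Lep at 0 in all 6. The fat cell markers Fabp4, Cidec and Plin1 were read in each MCE1 library, and Fabp4 in each Control library too, with values given below. Of 76 markers of macrophages, granulocytes, endothelium, epithelium, skeletal muscle and lymphocytes, 49 were listed at 0 in all 6 libraries and 9 were tested. The macrophage markers summed to 7.05 to 9.43 TPM over the Control libraries and to 2.56 to 4.72 TPM over those of MCE1, with Ptprc, Adgre1, Itgam and C1qa at 0 in all 6.

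The change between both stages touched most of the transcriptome. At an adjusted p under 0.05 (limma on log2(TPM + 1), Benjamini-Hochberg over all 11605 genes), 3130 genes (27.0% of those tested) were called higher at MCE1 and 4141 (35.7%) were called lower, 62.7% in all. The excess of lower over higher calls depended on the scaling between libraries: median-ratio scaling gave 3650 higher and 3691 lower, and quantile normalization 3749 and 3506. Changes of at least 1 log2 unit were called in 578 genes higher (4.98%) and 1150 lower (9.91%), and of at least 2 log2 units in 165 higher (1.42%) and 265 lower (2.28%). The ranges of both groups did not overlap in 7976 genes (68.7%). The genes called higher held 32.8 ± 0.290% of the listed TPM in Control and 47.5 ± 0.135% at MCE1, and those called lower fell from 42.2 ± 0.268% to 27.1 ± 0.0647%. The median log2 fold change of all tested genes was -0.07. The quartiles lay at -0.47 and 0.28. The SE follows ± in all log2 values below. Pearson's r on log2(TPM + 1) across genes, which are not independent replicates, was 0.987 to 0.990 between libraries of a group and 0.911 to 0.917 between groups. Since TPM is relative to the library and the RNA is of many cells, a smaller share of cells that express a gene and less of its RNA per cell cannot be told apart.

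**Figure D1:**
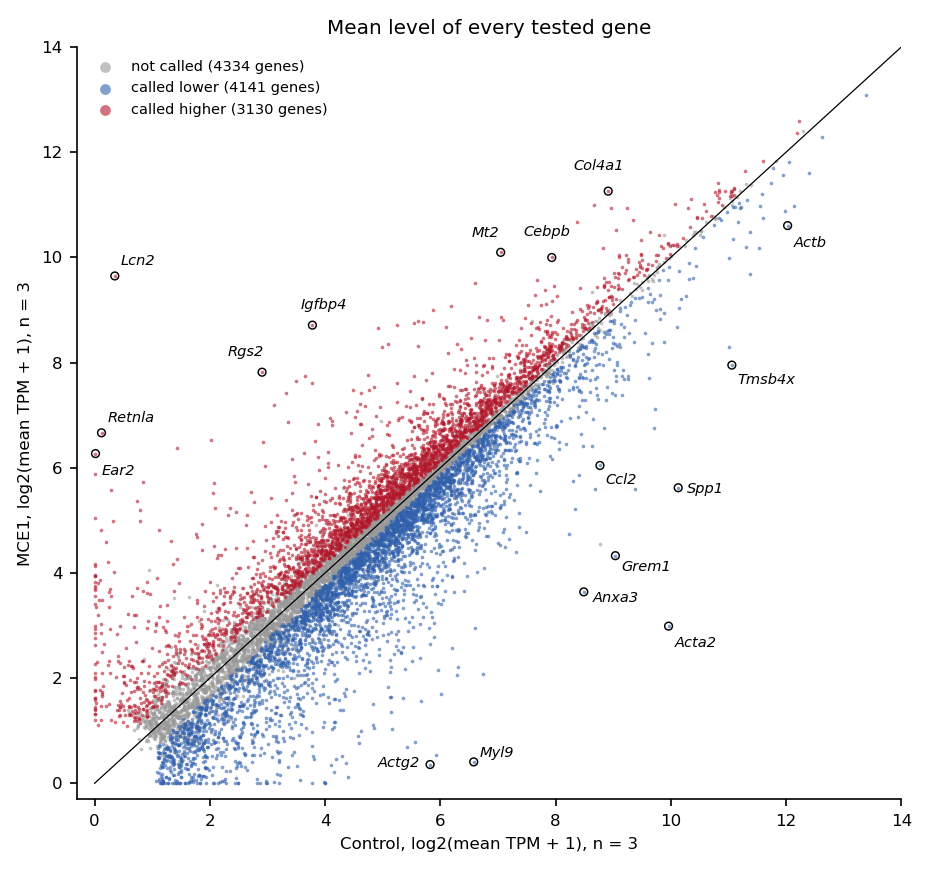
Mean level of each of the 11605 tested genes in Control (horizontal axis) and at MCE1 (vertical axis), as log2 of the mean TPM of 3 libraries plus 1, with genes called higher in red, called lower in blue and the rest in grey; the line marks equal levels. Lcn2, Retnla and Ear2 stand near 0 in Control and far above the line, and Acta2, Myl9 and Actg2 far below it.

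Because 62.7% of genes were called, a list with many called members is not unusual. The lists are therefore described by their counts and by their median log2 fold change, beside the shares and the median of all genes. Some genes met the filter through 1 group alone, with all 3 libraries of the other group under 1 TPM, and could then hardly do other than differ. Of 157 such genes with MCE1 as the group that met it 154 were called higher, and of 367 with Control 358 were called lower. Counts and medians of lists cover the members that met the filter, and where such genes are many the counts are given without them too. The lists share some members, with 25 genes in more than 1 list, so their counts are not independent. In the plot of list members the medians ran from 2.67 for glucocorticoid-responsive genes to -1.57 for contractile genes. Mature fat cell genes (1.63), acute phase genes (1.59) and the basement membrane (1.29) followed at the upper end. YAP and TEAD targets and pathway genes (-0.96), MAP kinase feedback genes (-0.93) and growth factors (-0.81) stood at the lower end. Genes that met the filter only through MCE1 were 11 of 24 acute phase genes, 6 of 28 fat cell genes and 5 of 18 glucocorticoid-responsive genes. Of 27 contractile genes 5 met it only through Control. The medians of these lists rest in part on genes whose direction the filter set.

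**Figure D2:**
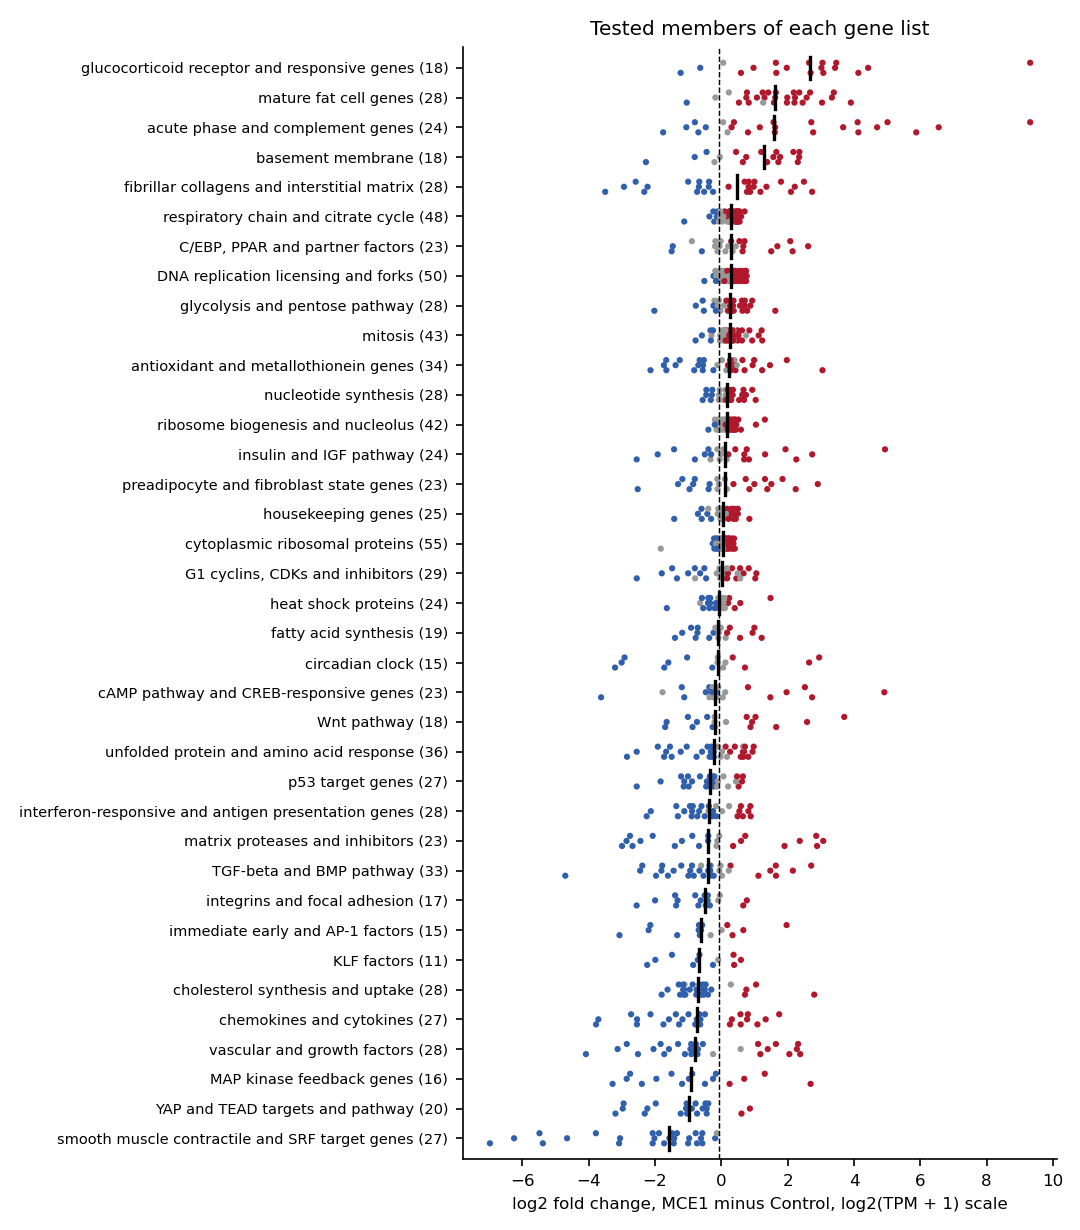
Log2 fold change (MCE1 minus Control, log2(TPM + 1) scale, horizontal axis) of every tested member of each gene list with at least 5 tested members; the number tested follows the name. Red points were called higher, blue points lower and grey points neither; the black bar is the list median and the dashed line the median of all genes, -0.07.

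Genes known to respond to glucocorticoids rose, many of them by several log2 units. Of 18 tested members of that list 15 were called higher and 2 lower (83.3% higher against 27.0% of all genes). Of these, 5 met the filter only through MCE1, and of the other 13 members 10 rose and 2 fell. Tsc22d3, which encodes the anti-inflammatory leucine zipper protein GILZ, read 18.5, 27.1 and 18.7 TPM in Control and 173, 178 and 182 TPM at MCE1. All 3 MCE1 libraries stood above all 3 Control libraries (adjusted p = 3.14e-06 for a log2 fold change of 3.02 ± 0.14). Per1, both a clock gene and a direct glucocorticoid and CREB target, rose from 11.5 ± 1.77 to 76.4 ± 2.53 TPM (adjusted p = 1.06e-06 for a log2 fold change of 2.64 ± 0.10). The phosphatase Dusp1, which switches off MAP kinases, rose from 19.6 ± 0.740 to 132 ± 2.97 TPM (2.69 ± 0.05 log2 units). Hsd11b1, which turns inactive 11-keto glucocorticoids into active hormone inside the cell, rose from 0.726 ± 0.344 to 35.5 ± 1.23 TPM (4.42 ± 0.16). Glul, glutamine synthetase, read 37.1, 37.3 and 36.9 TPM in Control and 419, 424 and 415 TPM at MCE1, and within each group its libraries lay close together. The metallothioneins Mt2 (from 131 ± 7.04 to 1093 ± 20.4 TPM) and Mt1 (from 499 ± 41.3 to 1956 ± 45.1 TPM), which bind zinc and copper, had 2 of the 10 largest rises in mean TPM among named genes. The receptor itself, Nr3c1, was not called (25.9 ± 1.75 in Control and 27.1 ± 3.85 TPM at MCE1, adjusted p = 0.675), and the mineralocorticoid receptor gene Nr3c2 fell from 3.36 ± 0.229 to 1.82 ± 0.411 TPM. Pdk4, a kinase that restrains pyruvate oxidation and is induced by glucocorticoids in several tissues, fell from 16.0 ± 1.34 to 6.25 ± 0.431 TPM (-1.23 ± 0.09). Sgk1, Errfi1 and Cdkn1c, other known targets, were listed at 0 in all 6 libraries. An exact 0 in these files can be a failed estimate, because genes that every cell uses, such as Hmgcs1 and Pmvk, are also listed at 0 in all 6.

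Genes of the cAMP pathway and genes known to answer cAMP were called in shares near those of all genes. Of 23 tested members 6 were called higher and 7 lower (26.1% higher and 30.4% lower, against 27.0% and 35.7% of all genes), with a median of -0.18, and median-ratio scaling between libraries made this 6 and 6. Rgs2, a brake on G protein signalling, read 5.90, 7.23 and 6.37 TPM in Control and 216, 226 and 232 TPM at MCE1. Its MCE1 libraries were all far above those of Control (adjusted p = 3.95e-08 for a log2 fold change of 4.91 ± 0.07). The salt-inducible kinase Sik1, which keeps the CREB coactivators out of the nucleus, rose from 22.6 ± 2.59 to 133 ± 2.31 TPM (2.52 ± 0.08), and the orphan nuclear receptor Nr4a1 from 15.6 ± 1.62 to 63.7 ± 3.01 TPM (1.97 ± 0.08). Of the phosphodiesterases, the enzymes that IBMX inhibits, Pde10a (from 0.883 ± 0.681 to 11.2 ± 3.08 TPM), Pde4d (from 6.72 ± 0.262 to 20.5 ± 0.736 TPM) and Pde3b (from 0.612 ± 0.106 to 1.81 ± 0.172 TPM) rose, and Pde7a was not called (-0.15 ± 0.08). Pde3b met the filter only through MCE1, so that its direction was set by the filter. Akap12, a scaffold that anchors protein kinase A, fell from 72.7 ± 3.97 to 4.99 ± 0.619 TPM (adjusted p = 1.87e-07 for a log2 fold change of -3.63 ± 0.09), and the kinase's regulatory subunit Prkar2b fell from 109 ± 2.02 to 47.2 ± 2.75 TPM. The catalytic subunit Prkacb fell from 66.3 ± 2.85 to 51.3 ± 1.5 TPM. Creb1 (-0.27 ± 0.14) and its coactivator Crtc2 (-0.18 ± 0.14) were not called.

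The promoter of Nr4a1 is shown for the letters that CREB is known to bind. Of 4 members called higher that have a promoter in the RefSeq table, 0 held the full site TGACGTCA (3.73% of all tested genes with a promoter) and 2 the core letters TGACG. RefSeq's 250 bases before its start (GRCm38.p6, chr15:101266596-101266845, plus strand) hold the core letters of its site, TGACG or their reverse complement CGTCA, 4 times, printed in capitals.
Nr4a1: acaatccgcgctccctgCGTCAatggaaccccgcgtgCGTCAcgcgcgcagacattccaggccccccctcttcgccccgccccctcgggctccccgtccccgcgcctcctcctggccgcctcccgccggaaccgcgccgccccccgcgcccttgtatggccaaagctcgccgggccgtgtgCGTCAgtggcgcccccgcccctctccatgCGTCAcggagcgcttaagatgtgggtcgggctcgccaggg
The capitals are matches of letters, not measured binding. TGACG is short and stood in 36.6% of tested genes with a promoter in the RefSeq table (3323 of 9084), counted over 250 bases before to 50 after the start and on both strands.

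The insulin and IGF pathway changed at several of its levels. Igfbp4, a carrier that holds IGFs away from their receptor, read 11.5, 11.9 and 14.8 TPM in Control and 399, 388 and 467 TPM at MCE1 (adjusted p = 1.77e-07 for a log2 fold change of 4.93 ± 0.11). Igfbp3 rose from 9.77 ± 0.419 to 70.8 ± 0.769 TPM and Igfbp7 fell from 897 ± 13.3 to 516 ± 20.1 TPM, and Igfbp6 was not called. The adaptor Irs2 rose from 20.4 ± 0.742 to 52.4 ± 1.59 TPM (1.32 ± 0.05) and its relative Irs1 fell from 20.8 ± 0.998 to 7.09 ± 0.162 TPM (-1.43 ± 0.07). The regulatory subunit of PI 3-kinase, Pik3r1, rose from 27.0 ± 1.90 to 106 ± 3.78 TPM (1.93 ± 0.06), and the catalytic subunit Pik3ca fell from 21.7 ± 1.21 to 16.3 ± 0.336 TPM. The insulin receptor gene Insr was not called (9.65 ± 2.90 and 7.43 ± 1.72 TPM). Grb14, an inhibitor of the insulin receptor, and Trib3, which binds AKT, fell from 60.2 ± 0.692 to 15.2 ± 0.557 TPM and from 61.6 ± 1.75 to 9.77 ± 2.00 TPM. Akt1 and Akt2 were not called (0.06 ± 0.03 and -0.05 ± 0.06). Among 24 tested members 11 were called higher and 7 lower (45.8% higher and 29.2% lower, against 27.0% and 35.7% of all genes; median 0.11).

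C/EBP beta and C/EBP delta, which act early in the adipogenic cascade, rose in their mRNA, and Pparg was not called. Cebpb read 225, 299 and 206 TPM in Control and 1143, 934 and 987 TPM at MCE1, and Cebpd 23.8, 22.3 and 23.5 TPM in Control and 146, 147 and 149 TPM at MCE1. Both groups were apart for both genes (2.08 ± 0.14 and 2.62 ± 0.04 log2 units). Rxra, the partner of PPAR gamma, rose from 87.1 ± 6.51 to 248 ± 4.18 TPM (1.5 ± 0.06), and Tcf7l1, a repressor of Wnt targets known to promote adipogenesis, from 43.4 ± 3.97 to 142 ± 8.98 TPM. Cebpg, a C/EBP without an activating domain, rose from 39.7 ± 0.983 to 63.5 ± 2.31 TPM, and Ddit3 (CHOP), which blocks C/EBP factors by pairing with them, fell from 105 ± 2.44 to 36.7 ± 2.50 TPM (adjusted p = 9.09e-07 for a log2 fold change of -1.5 ± 0.06). Gata3, which holds preadipocytes back from differentiating, read 2.15, 2.20 and 2.01 TPM in Control and 0.121, 0.0800 and 0.190 TPM at MCE1 (-1.47 ± 0.11). Gata3 met the filter only through Control, so that its direction was set by the filter. Pparg was not called, with 33.0, 29.5 and 32.1 TPM in Control and 18.9, 8.87 and 26.5 TPM at MCE1. Without MCE1 replicate 2 or without MCE1 replicate 3 it passed as lower (adjusted p = 0.0303 and 0.0148). Nr1h3 was not called (0.34 ± 0.27). Of 23 tested members of the list 10 rose and 3 fell (43.5% higher and 13.0% lower, against 27.0% and 35.7% of all genes; median 0.30).

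Immediate early and Kruppel-like factors fell more often than they rose. Egr1, an immediate early zinc finger factor, fell from 37.2 ± 2.29 to 7.75 ± 1.77 TPM (adjusted p = 1.34e-05 for a log2 fold change of -2.14 ± 0.14), and Egr3 from 12.7 ± 0.436 to 0.643 ± 0.210 TPM. Egr3 met the filter only through Control, so that its direction was set by the filter. The AP-1 subunits Jun (-0.68 ± 0.04) and Junb (-0.58 ± 0.06) fell, and Fosl1 was not called (0.01 ± 0.06). Myc read 42.9, 42.0 and 37.6 TPM in Control and 75.8, 77.1 and 47.3 TPM at MCE1. It was called higher (adjusted p = 0.0176 for a log2 fold change of 0.66 ± 0.18), with MCE1 replicate 3 well under the other two but above every Control library. The call was lost without Control replicate 3 (adjusted p = 0.0539), without MCE1 replicate 1 (0.0661) and without MCE1 replicate 2 (0.0549). Of 15 tested immediate early genes 4 rose and 9 fell (26.7% higher and 60% lower, against 27.0% and 35.7% of all genes; median -0.61), and without any of these 3 libraries 2 rose. Among Kruppel-like factors, Klf2 fell from 22.9 ± 2.57 to 5.06 ± 1.05 TPM (-1.99 ± 0.15), Klf7 from 17.5 ± 1.92 to 2.94 ± 0.569 TPM and Klf6 from 100.3 ± 5.03 to 35.1 ± 0.978 TPM, while Klf9 (from 29.4 ± 0.818 to 44.8 ± 2.36 TPM) and Klf5 (from 42.9 ± 2.29 to 56.3 ± 4.38 TPM) rose. The highest rise in this list was 0.59 log2 units, and 3 members fell by at least 1 log2 unit. Of 11 tested Kruppel-like factors 3 rose and 7 fell (27.3% higher and 63.6% lower, against 27.0% and 35.7% of all genes).

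The circadian clock list had 4 of 15 members higher and 7 lower (26.7% higher and 46.7% lower, against 27.0% and 35.7% of all genes), with a median of -0.12 that turned to 0.04 with quantile normalization. Per1 and Per2, which repress the clock's activators, rose (Per2 by 0.71), and so did the repressor Nfil3, from 13.7 ± 1.04 to 112 ± 8.47 TPM (2.95 ± 0.08). Nr1d1 and Nr1d2, the REV-ERB receptors, fell from 40.6 ± 1.90 to 3.52 ± 0.374 TPM (-3.21 ± 0.09) and from 34.2 ± 1.75 to 3.65 ± 0.0584 TPM (-2.92 ± 0.08), and Dbp from 17.1 ± 2.38 to 1.24 ± 0.194 TPM (-3.01 ± 0.13). The core activators Clock (0.12 ± 0.21) and Arntl (-0.12 ± 0.12) were not called.

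Feedback genes of the MAP kinase pathway and growth factors fell more often than they rose. Of 16 tested feedback genes 12 were called lower and 4 higher (75% lower against 35.7% of all genes). Etv4 and Etv5, factors induced by ERK, fell from 33.0 ± 2.70 to 2.57 ± 0.848 TPM and from 29.7 ± 2.13 to 4.85 ± 0.821 TPM. Dusp4, an ERK phosphatase, fell from 54.9 ± 1.14 to 6.76 ± 0.959 TPM (adjusted p = 5.97e-07 for a log2 fold change of -2.86 ± 0.10) and Dusp5 from 36.8 ± 2.34 to 8.75 ± 1.22 TPM. Spred1 and Spred2, inhibitors of RAF, fell by 1.5 and by 1.18, and Spry1 rose by 0.69. Of the 4 feedback genes that rose, 2 did so by at least 1 log2 unit. The highest was Dusp1 (2.69), given above with the glucocorticoid-responsive genes. Of 28 tested growth factor genes 18 fell and 8 rose (28.6% higher and 64.3% lower, against 27.0% and 35.7% of all genes). Ligands of receptor tyrosine kinases that fell included Hbegf (from 18.1 ± 1.37 to 1.64 ± 0.0964 TPM), Nrg1 (from 29.8 ± 2.23 to 4.40 ± 0.582 TPM) and Fgf7 (from 289 ± 14.7 to 87.0 ± 6.63 TPM). Pdgfb was listed at 0 in each MCE1 library against 2.85, 3.27 and 3.29 TPM in Control. Fgf10, an adipogenic fibroblast growth factor, rose from 13.9 ± 0.536 to 60.8 ± 2.07 TPM (adjusted p = 2.40e-07 for a log2 fold change of 2.05 ± 0.06). Among receptors, Fgfr2 rose from 10.0 ± 1.27 to 56.3 ± 7.51 TPM, Fgfr3 from 1.58 ± 0.905 to 11.6 ± 3.09 TPM and Egfr from 0.615 ± 0.0596 to 6.83 ± 0.425 TPM, while the platelet-derived growth factor receptor gene Pdgfrb fell from 87.1 ± 12.7 to 14.3 ± 2.39 TPM and Pdgfra rose (-2.52 ± 0.15 and 1.31 ± 0.20). Egfr met the filter only through MCE1 and Pdgfb only through Control, so that the filter set the direction of both. Vegfa rose from 18.8 ± 0.731 to 41.8 ± 3.28 TPM, and Vegfb, Vegfc and Vegfd fell by 0.72, by 0.56 and by 0.71.

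The contractile actin cytoskeleton was the list with the lowest median. Serum response factor (SRF) drives these genes with its partners of the MRTF family, which are held in the cytoplasm by free actin monomers and released when actin is polymerised. Of 27 tested members 26 fell, 0 rose and Csrp2 was not called (96.3% lower against 35.7%). Of these, 5 met the filter only through Control, and of the other 22 members 21 fell. Without Control replicate 1, Csrp2 passed as lower too (adjusted p = 0.0121). Acta2 (smooth muscle actin, mm9 chromosome 19, 34314826 to 34329863) read 1073, 981 and 933 TPM in Control and 7.46, 5.75 and 7.6 TPM at MCE1. All 3 MCE1 libraries stood far under the lowest Control library (adjusted p = 4.87e-08 for a log2 fold change of -6.98 ± 0.10). Myl9, a myosin light chain, read 102, 91.2 and 90.8 TPM in Control and 0, 0 and 0.979 TPM at MCE1. Cnn2, a calponin, fell from 667 ± 17.7 to 47.6 ± 3.16 TPM (-3.78 ± 0.05) and Tagln (transgelin) from 106 ± 12 to 3.24 ± 0.433 TPM (-4.65 ± 0.11). Cald1, caldesmon, fell from 408 ± 66.5 to 47.5 ± 9.55 TPM. Tnnt2, a troponin of heart muscle, stood at 59.6 ± 4.36 TPM in Control and 0.454 ± 0.121 at MCE1. The abundant cytoplasmic actins fell as well, Actb from 4172 ± 183 to 1556 ± 1.52 TPM and Actg1 from 2948 ± 54.7 to 1164 ± 30.2 TPM, which gave Actb the largest fall in mean TPM of all named genes. Actin genes share much of their coding sequence, so how reads were split between Acta1, Acta2, Actg2, Actb and Actg1 is uncertain. Srf (-0.57 ± 0.06), Mrtfa (-0.57 ± 0.07) and Mrtfb (-0.97 ± 0.11) fell too. The list summed to 15671 to 16556 TPM over the Control libraries and to 5916 to 6002 TPM over those of MCE1. The actin monomer binders Tmsb4x (from 2133 ± 110.1 to 247 ± 10.1 TPM) and Tmsb10 (from 2667 ± 57.8 to 825 ± 13.3 TPM) were among the 10 largest falls in mean TPM.

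The sequence that SRF is known to bind, the CArG box, stood in several of these promoters. The strict form was found in 7 of the 23 lower members that have a promoter in the RefSeq table (30.4%) and in 1.40% of all 9084 tested genes with one. With 1 C or G allowed in the core of A and T the counts were 9 of 23 (39.1%) and 10.1%. The list was made of contractile genes and known SRF targets, so a share above that of all genes was likely beforehand and is no result of these data. The 250 bases before the start of 3 members that fell steeply are printed, from RefSeq's GRCm38.p6 table, with CArG boxes of the wider form in capitals. They lie at chr19:34255374-34255623 on the minus strand (Acta2), chr2:156775214-156775463 on the plus strand (Myl9) and chr10:79988350-79988599 on the plus strand (Cnn2).
Acta2: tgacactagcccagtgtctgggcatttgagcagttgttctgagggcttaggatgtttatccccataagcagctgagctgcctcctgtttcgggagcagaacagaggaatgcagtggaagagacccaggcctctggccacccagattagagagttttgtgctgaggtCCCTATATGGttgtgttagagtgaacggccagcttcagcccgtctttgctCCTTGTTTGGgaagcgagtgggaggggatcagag
Myl9: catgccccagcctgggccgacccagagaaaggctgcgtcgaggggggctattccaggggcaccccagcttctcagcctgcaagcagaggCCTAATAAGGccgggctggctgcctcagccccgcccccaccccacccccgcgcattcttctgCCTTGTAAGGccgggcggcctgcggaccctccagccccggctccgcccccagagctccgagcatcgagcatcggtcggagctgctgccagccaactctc
Cnn2: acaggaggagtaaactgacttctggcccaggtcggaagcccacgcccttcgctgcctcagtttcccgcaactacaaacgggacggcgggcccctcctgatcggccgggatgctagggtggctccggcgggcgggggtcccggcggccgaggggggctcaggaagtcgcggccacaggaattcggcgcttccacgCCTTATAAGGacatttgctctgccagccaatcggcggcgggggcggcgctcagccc
Acta2 and Myl9 hold 2 boxes each and Cnn2 holds 1. Members without a box in this window included Cald1, Tpm1 and Zyx. The window runs from 250 bases before to 50 after a start, and a window of this size says nothing about boxes in introns or farther away.

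YAP and TAZ are coactivators that enter the nucleus of spread and stretched cells and work through TEAD factors. Their list holds known targets and also genes of the pathway itself, such as Yap1, Wwtr1, Tead2, Tead3, Lats1, Lats2 and Amotl1. Of 20 tested members of that mixed list 18 fell and 2 rose (10.0% higher and 90.0% lower, against 27.0% and 35.7% of all genes), and without 2 that met the filter only through Control 16 of 18 fell. Ccn2 (CTGF) was listed at 9.07, 7.94 and 7.50 TPM in Control and at 0 in each MCE1 library, and Ankrd1 at 8.78, 6.61 and 5.52 TPM and 0. Ccn1 (CYR61) read 170.4, 157 and 162 TPM in Control and 37.7, 33.6 and 30.9 TPM at MCE1 (adjusted p = 5.35e-07 for a log2 fold change of -2.23 ± 0.08). Ajuba, a scaffold of the Hippo pathway, fell from 45.2 ± 1.84 to 5.00 ± 0.398 TPM and the receptor tyrosine kinase Axl from 229 ± 3.82 to 97.7 ± 13.0 TPM. The coactivator genes changed by less, with Yap1 from 71.8 ± 12.7 to 52.2 ± 3.93 TPM (-0.44 ± 0.13; without MCE1 replicate 2 or 3 the adjusted p was 0.0572 and 0.0632) and Wwtr1, which encodes TAZ, from 81.9 ± 3.41 to 43.7 ± 2.56 TPM (-0.89 ± 0.06). Tead2 and Tead3 fell by 1.05 and by 0.44, and Tead4 (from 12.3 ± 0.197 to 23.3 ± 3.21 TPM) and the TEAD cofactor Vgll3 (from 22.4 ± 1.57 to 34.8 ± 3.53 TPM) rose. Since the list holds known TEAD targets, a high share of promoters with the TEAD site was likely beforehand and is no result of these data. The letters GGAATG, to which TEAD factors bind, stood on either strand in the promoters of 11 of the 14 lower members with one (78.6%, against 13.7% of all). In Ccn1 they stand once, as the reverse complement CATTCC, in the 250 bases before the start (GRCm38.p6, chr3:145649986-145650235, minus strand).
Ccn1: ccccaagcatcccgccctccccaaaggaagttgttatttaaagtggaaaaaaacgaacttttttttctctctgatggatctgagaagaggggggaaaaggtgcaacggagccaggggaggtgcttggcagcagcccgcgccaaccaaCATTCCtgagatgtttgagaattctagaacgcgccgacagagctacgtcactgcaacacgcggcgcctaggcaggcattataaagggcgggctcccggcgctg

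Adhesion genes that link the matrix to actin fell in the main. Of 17 tested integrin and focal adhesion genes 13 fell and 2 rose (11.8% higher and 76.5% lower, against 27.0% and 35.7% of all genes). Itga3 fell from 16.9 ± 0.642 to 2.05 ± 0.197 TPM, Itgb5 from 77.9 ± 3.09 to 18.7 ± 0.274 TPM, Itgav from 122 ± 5.25 to 45.9 ± 2.03 TPM, and talin, Tln1, from 186 ± 6.05 to 71.6 ± 1.59 TPM (-1.36 ± 0.04). Zyx, which sits at the same contacts, fell by 2.07, and vinculin, Vcl, fell by 1.88. The fibronectin receptor subunit Itga5 rose from 213 ± 1.68 to 338 ± 24.2 TPM (0.66 ± 0.05) and Itgb3 from 25.1 ± 3.78 to 43.3 ± 2.35 TPM, while their partner Itgb1 fell from 507 ± 16.1 to 329 ± 10.9 TPM. Ptk2, focal adhesion kinase, was not called (-0.05 ± 0.05).

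TGF beta and BMP signalling genes were lower on balance, 20 of 33 tested against 7 higher (21.2% higher and 60.6% lower, against 27.0% and 35.7% of all genes). Known targets of both branches were among those that fell. Smad7, an inhibitor induced by TGF beta, fell from 32.8 ± 1.29 to 5.49 ± 0.695 TPM (adjusted p = 1.20e-06 for a log2 fold change of -2.38 ± 0.10), Smad6 from 51.6 ± 3.22 to 12.4 ± 0.821 TPM, Skil from 20.9 ± 1.28 to 5.36 ± 0.0986 TPM, and Id1, Id2 and Id3, which BMPs induce, fell by 0.83, by 0.99 and by 1.21. Grem1, a secreted BMP antagonist, read 483, 515 and 576 TPM in Control and 19.3, 19.3 and 18.7 TPM at MCE1 (adjusted p = 3.89e-08 for a log2 fold change of -4.71 ± 0.07). Other antagonists rose, Fst (follistatin) from 16.3 ± 2.81 to 111 ± 3.37 TPM (2.71 ± 0.11), Nog (noggin) from 0.904 ± 0.269 to 7.45 ± 0.772 TPM, and Fstl1 from 527 ± 31.2 to 1467 ± 17.0 TPM. The receptor genes Tgfbr2 and Tgfbr3 rose, Tgfbr2 from 21.2 ± 2.50 to 68.0 ± 0.917 TPM and Tgfbr3 from 74.5 ± 3.26 to 235 ± 5.06 TPM, while the ligand Tgfb3 fell from 32.8 ± 1.54 to 8.66 ± 0.450 TPM and Tgfb1 was not called (-0.03 ± 0.09). In the Wnt list 7 of 18 rose and 7 fell (38.9% higher and 38.9% lower, against 27.0% and 35.7% of all genes; median -0.20), which median-ratio scaling made 8 and 7 and quantile normalization 8 and 6 with a median of 0.01. Fzd4 read 1.47, 0.950 and 1.11 TPM in Control and 28.7, 26.6 and 26.4 TPM at MCE1 (3.71 ± 0.11), and the coreceptor Lrp5 rose from 67.5 ± 9.56 to 407 ± 6.01 TPM (2.58 ± 0.09). The secreted antagonist Sfrp2 fell from 27.6 ± 2.69 to 7.82 ± 0.407 TPM, Ccn4 (WISP1) from 23.9 ± 3.45 to 6.89 ± 0.610 TPM, and Ctnnb1, beta catenin, from 457 ± 12.1 to 381 ± 10.4 TPM.

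The matrix changed in composition. Of 18 tested genes of the basement membrane and of collagen VI 13 rose and 3 fell (72.2% higher and 16.7% lower, against 27.0% and 35.7% of all genes). Col4a1 read 466, 468 and 509 TPM in Control and 2623, 2438 and 2289.5 TPM at MCE1, which was the largest rise in mean TPM among genes with an assigned name (adjusted p = 1.86e-07 for a log2 fold change of 2.35 ± 0.06). Col4a2, its partner chain transcribed from the same promoter region, rose from 330.2 ± 13.0 to 1636 ± 96.1 TPM. Col6a1 (from 600.5 ± 65.2 to 1971 ± 63.2 TPM), Col6a2 (from 403 ± 46.3 to 2054 ± 73.5 TPM) and Col6a3 (from 198 ± 12.7 to 626 ± 30.5 TPM) rose together. The laminin chains Lama4 (from 43.8 ± 3.32 to 116 ± 4.36 TPM) and Lamc1 (from 106 ± 4.86 to 245 ± 14.9 TPM) and the linkers Nid1 (0.65 ± 0.07) and Nid2 (1.57 ± 0.12) rose, and perlecan, Hspg2, was not called (-0.04 ± 0.11). Col4a5, a chain of another collagen IV network, fell from 50.9 ± 4.74 to 9.71 ± 0.342 TPM. Among 28 interstitial matrix genes 15 rose and 13 fell (53.6% higher and 46.4% lower, against 27.0% and 35.7% of all genes). Chains of collagen I fell (Col1a1 from 1235 ± 68.9 to 616 ± 27.4 TPM, Col1a2 from 2166 ± 125 to 1305 ± 69.6 TPM) while those of collagen III and V differed, Col3a1 rising by 1.36, Col5a3 by 2.21 and Col5a2 changing by -0.68. The small proteoglycan Dcn (decorin) rose from 47.7 ± 10.8 to 319 ± 19.3 TPM. Among matricellular genes Thbs2 fell from 301 ± 22.1 to 25.7 ± 2.04 TPM (-3.5 ± 0.08), Thbs1 from 158 ± 13.2 to 20.0 ± 3.89 TPM and Tnc from 25.2 ± 10.3 to 4.48 ± 1.42 TPM. Of the lysyl oxidases, which cross-link collagen, Loxl1 rose from 201 ± 7.48 to 402 ± 14 TPM and Loxl3 and Loxl4 fell from 136 ± 1.65 to 26.3 ± 1.53 TPM and from 56.0 ± 0.738 to 8.50 ± 0.104 TPM.

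Matrix proteases and their inhibitors changed in both directions, 8 of 23 rising and 12 falling (34.8% higher and 52.2% lower, against 27.0% and 35.7% of all genes). Several metalloproteases of the ADAMTS family rose, Adamts1 from 71.6 ± 1.25 to 535 ± 17.8 TPM (adjusted p = 3.86e-08 for a log2 fold change of 2.88 ± 0.04), Adamts2 from 16.1 ± 1.30 to 123 ± 3.32 TPM, Adamts9 from 6.79 ± 0.237 to 64.5 ± 2.77 TPM and Adamts12 from 7.37 ± 0.783 to 41.9 ± 0.634 TPM, and so did the gelatinase Mmp2 (from 204 ± 34.5 to 758 ± 18.1 TPM). Genes of the plasminogen system were among those that fell, the urokinase receptor Plaur from 108 ± 5.47 to 16.0 ± 0.837 TPM, the activator Plat from 67.1 ± 4.32 to 11.6 ± 1.31 TPM and Plau (5.15, 6.26 and 5.91 TPM in Control and 0.539, 0.831 and 0.479 TPM at MCE1). Plau met the filter only through Control, so that its direction was set by the filter. The inhibitors of metalloproteases Timp3 (from 39.1 ± 2.35 to 4.53 ± 0.497 TPM), Timp1 (from 565 ± 36.5 to 213 ± 2.95 TPM) and Timp2 (from 559.6 ± 21.5 to 425 ± 2.75 TPM) fell. Adamts5, Mmp3 and Mmp19 were not called.

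**Figure D3:**
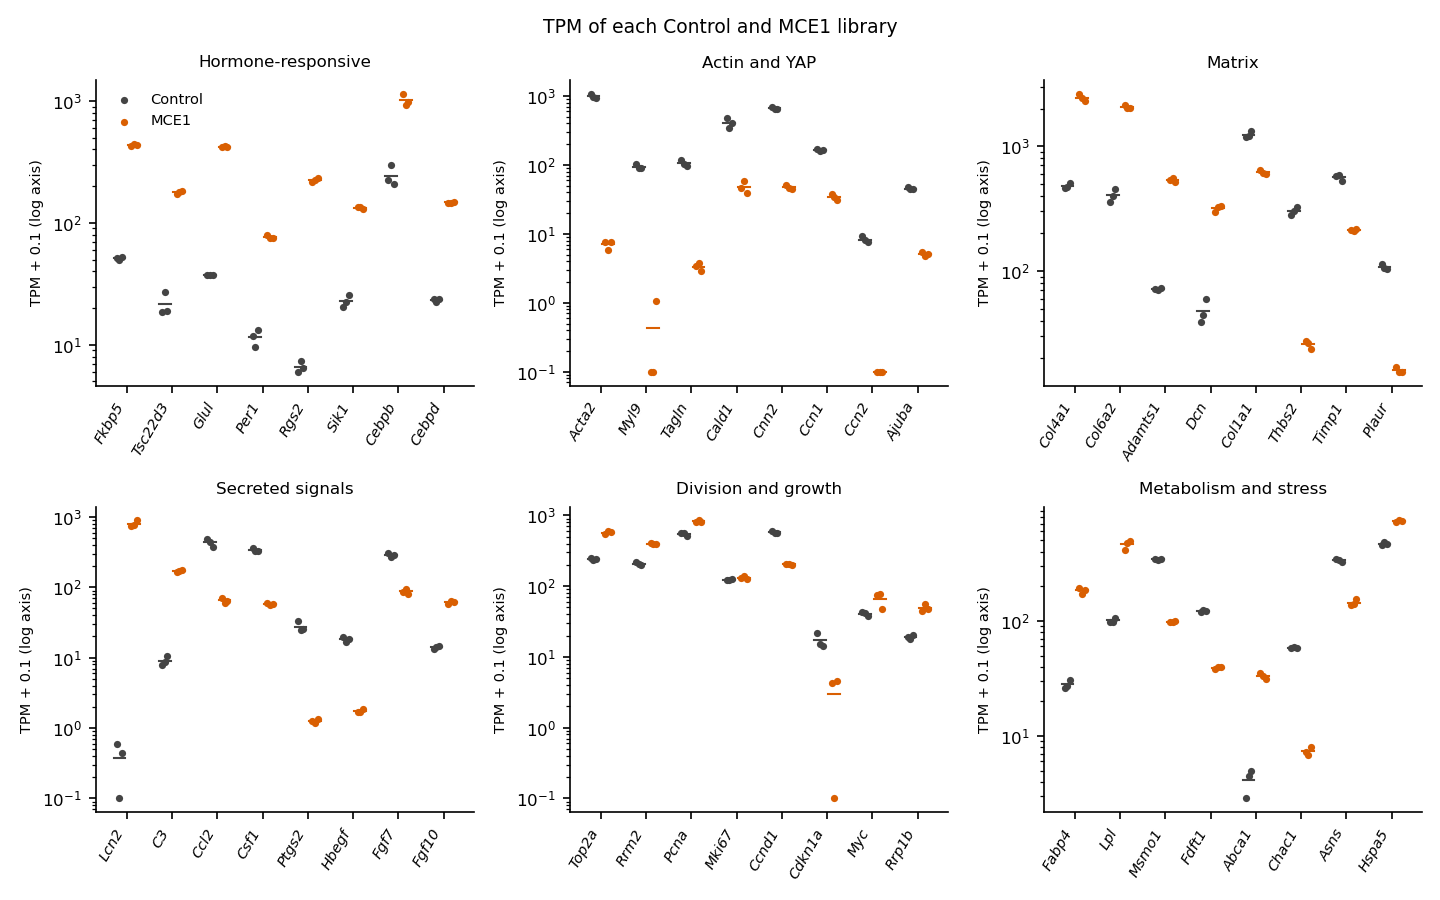
TPM plus 0.1 on a log axis in each of the 3 Control (grey) and 3 MCE1 (orange) libraries for 8 genes in each of 6 groups; short lines are means. Libraries of a group lie close together except where one is listed at 0 (Lcn2, Myl9, Cdkn1a), and in all panels but that of division the groups of every gene are apart.

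Several genes of secreted innate immune proteins rose from levels near 0, and more chemokines and cytokines fell than rose. Lcn2, a carrier of iron-binding siderophores, read 0.486, 0 and 0.340 TPM in Control and 746, 764 and 892 TPM at MCE1. It had the highest log2 fold change among genes with an assigned name (9.31 ± 0.15). Lcn2 met the filter only through MCE1, so that its direction was set by the filter. Genes listed at 0 in each Control library were S100a8 (58.8, 56.3 and 58.1 TPM at MCE1), Saa3 (16.1, 16.9 and 16.5 TPM) and Hp (12.6, 11 and 11.6 TPM). C3, the central complement protein, rose from 9.0 ± 1.33 to 171 ± 5.60 TPM (4.11 ± 0.09), and Serpina3n, an inhibitor of serine proteases, from 1.68 ± 0.856 to 82.1 ± 6.74 TPM. Orm1 read 23.5, 25.1 and 32.9 TPM at MCE1 and Orm3 33.8, 40.7 and 46.8 TPM, and since Orm1, Orm2 and Orm3 are near copies the share of each is uncertain. Retnla, a resistin-like protein, read 101, 101 and 99.1 TPM against 0, 0 and 0.261 TPM. Of 24 tested members 17 rose and 5 fell (70.8% against 27.0%). Of the 24, 11 met the filter only through MCE1 and 1 only through Control, so that their direction was set by the filter, and of the other 12 members 6 rose and 4 fell. Among those that fell were Serping1 (2.91, 3.54 and 3.08 TPM and 0.268, 0.148 and 0.292 TPM), the inhibitor of C1, and Cd14 (from 11.6 ± 1.30 to 6.29 ± 0.986 TPM). S100a9, whose protein pairs with that of S100a8, was listed at 0 in all 6.

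Ear1, Ear2 and Camp, known as genes of granulocytes, rose beside these. Ear2 read 68.7, 82.8 and 76.8 TPM at MCE1, and 0, 0 and 0.0333 TPM in Control, while Ear1 (7.42, 6.73 and 6.62 TPM) and Camp (5.49, 6.09 and 7.19 TPM) had a listed value of 0 in each Control library. Ear1 and Ear2 belong to a family of near copies, so their split is uncertain. The 11 other granulocyte markers, among them Elane, Mpo, Prtn3, Csf3r, Ltf and Ngp, were listed at 0 in all 6 libraries. The list of 14 summed to at most 0.0333 TPM in a Control library and to 81.7 to 95.6 TPM at MCE1, nearly all of it Ear2.

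Of 27 tested chemokine and cytokine genes 18 fell and 9 rose (33.3% higher and 66.7% lower, against 27.0% and 35.7% of all genes). Without 5 that met the filter through 1 group alone, 15 of 22 fell and 7 rose. Ccl2, which draws monocytes, read 488, 442 and 377 TPM in Control and 71.2, 60.5 and 63.1 TPM at MCE1 (adjusted p = 1.29e-06 for a log2 fold change of -2.72 ± 0.10). Its neighbour on chromosome 11, Ccl7, fell from 314 ± 26.9 to 52.8 ± 1.97 TPM, and Csf1, the growth factor of macrophages, from 339 ± 18.1 to 57.3 ± 1.61 TPM (-2.54 ± 0.05). The inducible cyclooxygenase Ptgs2 fell from 27.3 ± 4.51 to 1.15 ± 0.0832 TPM (-3.71 ± 0.13) and the constitutive Ptgs1 from 349 ± 9.63 to 154 ± 1.36 TPM, while the prostaglandin E synthase Ptges rose from 57.6 ± 2.47 to 147 ± 5.37 TPM. The NF-kappa B subunits Rela (-0.64 ± 0.05) and Nfkb1 (-0.66 ± 0.06) fell, and their inhibitor Nfkbia rose from 73.3 ± 3.66 to 91.5 ± 0.138 TPM. Cxcl1 and Cxcl5, which draw neutrophils, rose from 21.2 ± 5.32 to 37.1 ± 1.89 TPM and from 35.6 ± 4.67 to 53.5 ± 4.01 TPM, and Il6 read 0.363, 0.730 and 0.874 TPM in Control and 1.61, 3.01 and 3.06 TPM at MCE1. Interferon-responsive genes were lower in 17 of 28 cases and higher in 7 (25% higher and 60.7% lower, against 27.0% and 35.7% of all genes). Without 5 that met the filter only through Control, 13 of 23 fell. Ifit2 fell from 14.6 ± 2.49 to 2.24 ± 0.152 TPM and Gbp2 from 4.54 ± 0.670 to 0.262 ± 0.0127 TPM, whereas genes of antigen presentation differed, H2-D1 and Tap1 rising from 228 ± 7.72 to 422 ± 29.2 TPM and from 6.07 ± 0.767 to 12 ± 1.59 TPM and B2m falling from 1379 ± 26.7 to 917 ± 144 TPM. Osteopontin, Spp1, fell from 1118 ± 15.6 to 48.2 ± 5.49 TPM (-4.51 ± 0.07) and annexin Anxa1, a mediator of glucocorticoid action in leukocytes, from 2059.6 ± 48.7 to 312 ± 9.76 TPM (-2.72 ± 0.03).

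Genes of DNA synthesis and of mitosis rose by small amounts. The replication list summed to 3975 to 4164 TPM over the Control libraries and to 4952 to 5115 TPM over those of MCE1. Of 50 tested replication genes 30 rose and 3 fell (60% higher and 6.00% lower, against 27.0% and 35.7% of all genes), with a median of 0.29, and of 43 mitosis genes 25 rose and 5 fell (58.1% and 11.6%), with a median of 0.25. Rrm2, the subunit that limits ribonucleotide reductase, read 221, 206 and 197 TPM in Control and 410.4, 390.4 and 391 TPM at MCE1 (adjusted p = 3.73e-06 for a log2 fold change of 0.93 ± 0.05). The mRNA of enzymes that supply thymidylate rose as well, Dtymk from 139 ± 1.79 to 287 ± 3.63 TPM, Tk1 from 162 ± 13.3 to 271 ± 4.46 TPM and Tyms from 51.2 ± 2.38 to 81.9 ± 1.59 TPM. Cdc45, which starts the replicative helicase, rose from 57.1 ± 3.80 to 96.2 ± 3.13 TPM and the primase Prim1 from 69.8 ± 4.11 to 118 ± 10.5 TPM. Of the licensing genes, Mcm6 rose by 0.28 and Mcm7 by 0.36, and Cdt1 and Dbf4 fell by 0.24 and by 0.51. In mitosis the highest rises were those of Top2a (from 243 ± 9.49 to 572 ± 26.5 TPM), Prc1 (from 19.8 ± 1.35 to 48.3 ± 12.2 TPM), Incenp (from 80.3 ± 8.18 to 177 ± 26.0 TPM) and Aurkb (from 101 ± 4.65 to 182 ± 7.59 TPM). Mki67, the common marker of cycling cells, read 124, 121 and 126 TPM in Control and 132, 139 and 125 TPM at MCE1. Both groups overlapped and the gene was not called (adjusted p = 0.140), though median-ratio scaling called it higher (adjusted p = 0.0151). Anln and Kif23, which act at the cleavage furrow, fell from 166 ± 5.91 to 96.6 ± 2.55 TPM and from 83.4 ± 5.24 to 55.1 ± 0.848 TPM, and the mitotic factor Foxm1 from 112 ± 4.94 to 89.7 ± 2.86 TPM.

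Top2a has in its promoter the cell cycle homology region (CHR, letters TTTGAA), an element known from genes of G2 and mitosis. It stood on either strand in 14 of 21 mitosis genes called higher that have a promoter in the table (66.7%), in 4 of 4 called lower and in 7 of 11 not called, against 13.5% of all. The 250 bases before the start of Top2a (GRCm38.p6, chr11:99024190-99024439, minus strand) hold it at 2 places, once as the reverse complement TTCAAA.
Top2a: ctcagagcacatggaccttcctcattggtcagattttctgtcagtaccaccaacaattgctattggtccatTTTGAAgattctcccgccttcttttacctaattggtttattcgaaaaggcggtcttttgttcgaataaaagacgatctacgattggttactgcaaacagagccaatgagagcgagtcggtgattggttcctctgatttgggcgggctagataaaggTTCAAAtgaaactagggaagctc

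The G1 regulators were called in shares near those of all genes, 9 of 29 higher and 9 lower (31.0% higher and 31.0% lower, against 27.0% and 35.7% of all genes), and median-ratio scaling made this 11 and 9. Of the D-type cyclins, Ccnd1 fell from 579 ± 21.8 to 206 ± 3.75 TPM (-1.48 ± 0.04) and Ccnd2 from 242 ± 6.49 to 95 ± 1.79 TPM (-1.34 ± 0.04), and their kinase Cdk4 from 779.8 ± 2.84 to 567 ± 10.4 TPM. Ccnd3, another D-type cyclin, was listed at 0 in all 6 libraries, which can be a failed estimate. Cyclin E1, Ccne1, rose from 64.3 ± 2.38 to 80.5 ± 3.28 TPM and its kinase Cdk2 from 36.7 ± 5.55 to 50.2 ± 4.07 TPM. Inhibitors of CDK4 and CDK6 moved apart. Cdkn2b (p15) fell from 136 ± 3.43 to 38.5 ± 1.42 TPM and Cdkn2a from 409.9 ± 11.5 to 204 ± 1.81 TPM, and Cdkn2c (p18) and Cdkn2d (p19) rose from 50.8 ± 2.33 to 104 ± 4.52 TPM and from 22.8 ± 0.415 to 36.9 ± 1.71 TPM. Cdkn1a (p21) read 21.5, 15.3 and 14.3 TPM in Control and 4.13, 0 and 4.46 TPM at MCE1, lower in each library (adjusted p = 0.0111 for a log2 fold change of -2.55 ± 0.64). With a pseudocount of 0.1 TPM the adjusted p was 0.0663. Targets of p53 fell in 18 of 27 cases and rose in 4 (14.8% higher and 66.7% lower, against 27.0% and 35.7% of all genes). Plk2 fell from 99.4 ± 6.29 to 27.2 ± 1.67 TPM, Ccng1 from 209 ± 4.19 to 105 ± 5.35 TPM, the death receptor Fas from 18.8 ± 0.990 to 7.56 ± 0.845 TPM and Trp53 itself from 289 ± 11 to 209.9 ± 2.97 TPM. Mdm2, which marks p53 for destruction, stood at 3414 ± 148 TPM in Control and fell to 2712 ± 59.2 TPM, a call that quantile normalization ended (adjusted p = 0.220). Aen, a nuclease induced by p53, rose by 0.62.

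Of 42 tested genes for making ribosomes 24 rose and 3 fell, by small amounts (57.1% higher and 7.14% lower, against 27.0% and 35.7% of all genes; median 0.17). Rrp1b rose from 19.1 ± 1.23 to 49.0 ± 5.88 TPM and Nop10 from 211 ± 10.2 to 435 ± 16.2 TPM, and the next highest change was that of Bop1 (0.59 ± 0.05). Npm1 (-0.02 ± 0.03) and Ubtf (-0.19 ± 0.12) were not called. Ribosomal protein genes were higher in 21 of 55 cases and lower in 8 (38.2% higher and 14.5% lower, against 27.0% and 35.7% of all genes), with a median of 0.05. Median-ratio scaling left 2 lower, quantile normalization made 14 lower and turned the median to -0.02, and a fit on all 18 libraries left 13 higher. Rpl41, which is in none of the lists, rose from 4790 ± 187 to 6207 ± 82.9 TPM. The elongation factor Eef1a1, fell from 10755 ± 119 to 8683 ± 191 TPM (-0.31 ± 0.02), a call that quantile normalization ended.

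Genes of the mature fat cell rose, most of them from low levels. Of 28 tested members 24 rose and only Plin2 fell (85.7% higher against 27.0%). Of these, 6 met the filter only through MCE1, Plin1 and Cidec among them, and of the other 22 members 18 rose. Fabp4, the fatty acid carrier, read 26.2, 27.3 and 30.5 TPM in Control and 195, 171 and 186 TPM at MCE1 (adjusted p = 2.28e-07 for a log2 fold change of 2.67 ± 0.07). Lpl, which releases fatty acids from lipoproteins, rose from 101 ± 5.14 to 463 ± 44.0 TPM and Cd36, which takes them up, from 1.75 ± 0.114 to 13.1 ± 1.30 TPM. Agt, angiotensinogen, rose from 12.7 ± 4.96 to 195 ± 9.73 TPM (3.90 ± 0.25) and Pcx, pyruvate carboxylase, from 25.7 ± 2.17 to 218 ± 3.17 TPM. The lipases Lipe (from 5.84 ± 1.07 to 39.5 ± 5.30 TPM) and Pnpla2 (from 12.1 ± 0.441 to 51.0 ± 3.55 TPM) and the lipase activator Abhd5 (from 23.3 ± 0.603 to 112 ± 3.41 TPM) rose together. Droplet proteins differed, as Cidec read 13.7, 8.47 and 8.44 TPM against 0.286, 0 and 0 TPM in Control, Plin1 2.13, 3.78 and 5.53 TPM against 0 in each Control library, and Plin2 fell from 123 ± 4.26 to 59.0 ± 3.92 TPM (-1.04 ± 0.06). Slc2a4, Aqp7, Mgll, Pck1 and Adrb3 were not tested, since they did not reach 1 TPM in 3 libraries.

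Genes of sterol synthesis fell in the main. In the cholesterol list 22 of 28 tested genes fell and 4 rose (78.6% lower against 35.7%). Msmo1 read 347, 341 and 346 TPM in Control and 96.9, 97.9 and 100.2 TPM at MCE1 (adjusted p = 5.56e-08 for a log2 fold change of -1.80 ± 0.03). Fdft1, which commits farnesyl units to sterols, fell from 122 ± 2.55 to 39.1 ± 0.862 TPM and Fdps from 384 ± 18.8 to 173 ± 6.41 TPM. The regulator Srebf2 fell from 159 ± 8.35 to 108 ± 4.06 TPM. Among the 4 that rose were genes of sterol export. Abca1, the exporter to apolipoprotein A1, read 2.77, 4.41 and 4.84 TPM in Control and 35.4, 33.2 and 31.4 TPM at MCE1 (2.80 ± 0.17), Abcg1 0.233, 0.511 and 0.399 TPM in Control and 1.95, 1.69 and 1.90 TPM at MCE1, and Npc2 rose from 259 ± 7.44 to 436 ± 1.30 TPM. Abcg1 met the filter only through MCE1, so that its direction was set by the filter. In fatty acid synthesis 6 of 19 rose and 8 fell, shares near those of all genes (31.6% higher and 42.1% lower, against 27.0% and 35.7% of all genes). Scd1, a desaturase, rose from 97.0 ± 4.35 to 226 ± 1.45 TPM and its regulator Srebf1 from 32.3 ± 0.888 to 65.4 ± 2.08 TPM, and the desaturases of polyunsaturated fatty acids, Fads1 and Fads2, fell from 187 ± 8.34 to 98.9 ± 0.812 TPM and from 165 ± 3.56 to 72.2 ± 2.93 TPM. Insig1, which retains SREBPs and is itself their target, fell from 109 ± 8.35 to 40.8 ± 2.32 TPM. Of the 22 lower cholesterol genes 14 have a promoter in the RefSeq table. The letters CCAAT stood in a promoter of 13 of these 14 genes (92.9%, against 43.4% of all). The share was not counted for list members that did not fall, so it cannot be tied to the fall. The sterol regulatory element, searched as TCACNCCAC on both strands, stood in 0 of 14 (1.23% of all). With so few promoters and letters this rare, a count of 0 cannot show that these genes lack the element.

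Among 28 glycolytic and pentose pathway genes 17 rose and 6 fell (60.7% higher and 21.4% lower, against 27.0% and 35.7% of all genes; median 0.27). Pfkl, a phosphofructokinase, rose from 46.7 ± 1.31 to 146 ± 9.25 TPM (1.63 ± 0.06), Ldha from 1081 ± 49.4 to 2061 ± 39.9 TPM and the glucose transporter Slc2a1 from 79.8 ± 2.11 to 118 ± 3.05 TPM. Pfkfb4 fell from 19.8 ± 2.78 to 4.13 ± 0.613 TPM and Hk1 from 105 ± 6.46 to 70.4 ± 4.57 TPM, while Hk2 rose from 20.5 ± 1.6 to 34.0 ± 2.08 TPM. In the respiratory chain and citrate cycle 35 of 48 rose and 6 fell (72.9% higher and 12.5% lower, against 27.0% and 35.7% of all genes), with Cycs at the top (0.70 ± 0.04). Median-ratio scaling left 3 lower. Cytochrome c, Cycs, rose from 80.3 ± 3.00 to 131 ± 1.89 TPM. The coactivator Ppargc1a read 2.55, 2.31 and 3.5 TPM in Control and 0.897, 0.555 and 0.750 TPM at MCE1 (-1.12 ± 0.16). It met the filter only through Control, so that its direction was set by the filter. Of the 47 members of the list that did not meet it through 1 group alone, 35 rose and 5 fell.

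Of 36 tested genes of the unfolded protein and amino acid responses 11 rose and 19 fell (30.6% higher and 52.8% lower, against 27.0% and 35.7% of all genes). Chaperones of the endoplasmic reticulum that rose were Hspa5 (BiP) from 469 ± 14.9 to 736 ± 15.8 TPM (adjusted p = 4.28e-06 for a log2 fold change of 0.65 ± 0.03), Manf from 238 ± 3.51 to 418 ± 5.69 TPM, Calr from 1814 ± 20.3 to 2722 ± 24.3 TPM and Sdf2l1 from 26.2 ± 1.90 to 52.5 ± 3.92 TPM, while Herpud1, which acts in the removal of misfolded proteins there, fell from 70.6 ± 0.540 to 20.7 ± 1.47 TPM and the disulfide isomerase Pdia6 from 354 ± 10.9 to 284 ± 8.03 TPM. Targets of ATF4, the factor that answers amino acid shortage, were among those that fell. Chac1, which degrades glutathione, read 58.4, 58.6 and 57.9 TPM in Control and 7.19, 6.76 and 7.84 TPM at MCE1 (adjusted p = 1.71e-07 for a log2 fold change of -2.85 ± 0.07). Asns, asparagine synthetase, fell from 336 ± 8.65 to 143 ± 8.83 TPM, the serine pathway enzymes Phgdh from 502 ± 27.4 to 171 ± 2.97 TPM and Psat1 from 549.8 ± 26.7 to 327 ± 10.1 TPM, and the stress regulator Nupr1 from 92.2 ± 3.90 to 23.8 ± 3.03 TPM. Atf4 itself fell by 0.26 and Atf5 by 0.36. Because the list holds known targets of ATF4, a high share of promoters with its element was likely beforehand. The element TGATGNAA, to which ATF4 with a C/EBP partner is known to bind, stood in the promoters of 6 of 18 lower members (33.3%, against 2.44% of all), namely Asns, Chac1, Herpud1, Nupr1, Slc7a11 and Trib3. In Asns (GRCm38.p6, chr6:7693210-7693459, minus strand) it lies close before the start.
Asns: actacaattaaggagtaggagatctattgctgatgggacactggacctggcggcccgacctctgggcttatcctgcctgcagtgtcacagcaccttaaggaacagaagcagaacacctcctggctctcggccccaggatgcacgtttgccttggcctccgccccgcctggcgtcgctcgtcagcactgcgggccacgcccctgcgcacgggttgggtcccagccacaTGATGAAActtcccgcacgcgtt

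Of 34 tested antioxidant and metallothionein genes 16 rose and 13 fell (47.1% higher and 38.2% lower, against 27.0% and 35.7% of all genes). Sod2, the mitochondrial superoxide dismutase, rose from 45.6 ± 2.62 to 108 ± 2.40 TPM and Srxn1 from 88.8 ± 1.79 to 172 ± 2.24 TPM, while haem oxygenase, Hmox1, fell from 237 ± 30.0 to 74.1 ± 3.81 TPM (-1.66 ± 0.09), Nqo1 from 166 ± 3.89 to 105 ± 6.48 TPM and the factor Nfe2l2 from 114 ± 2.64 to 77.1 ± 1.04 TPM. The 2 subunits of glutamate-cysteine ligase, which starts glutathione synthesis, went opposite ways, Gclc up from 42.7 ± 1.56 to 70.0 ± 3.59 TPM and Gclm down from 65.5 ± 2.17 to 36.7 ± 1.42 TPM. Heat shock genes were lower in 11 of 24 cases and higher in 5 (20.8% higher and 45.8% lower, against 27.0% and 35.7% of all genes), and median-ratio scaling turned this to 8 lower and 9 higher. Hspa4l fell from 41.8 ± 1.45 to 12.7 ± 1.30 TPM and Dnajb4 rose from 22.9 ± 2.26 to 65.5 ± 2.28 TPM.

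Genes that were read in one stage and listed at 0 in the other formed a short list. With at least 5 TPM in each library of the one group, 16 named genes had a listed value of 0 in each Control library and 7 in each MCE1 library. Beside those given above, the first set held Agtr2, a receptor of angiotensin II (31.3, 33.3 and 31.5 TPM at MCE1), Ren1, renin (9.43, 13.7 and 14.1 TPM), Alpl, an alkaline phosphatase (12.2, 11.2 and 13.0 TPM), Retn, resistin (9.62, 7.68 and 11.5 TPM), and Il1rn, an antagonist of the interleukin 1 receptor (5.43, 5.64 and 6.39 TPM). Cyp2f2 (16.5, 16.2 and 18.5 TPM), Pip (14.3, 13.0 and 16.4 TPM), Wfdc21 (11.3, 13.3 and 15 TPM) and Fam107a (10.2, 12 and 10.2 TPM) belonged to it too. It also held Sprr1b and Krt36, known from keratinised epithelium (15.8, 12.7 and 14.7 TPM and 6.22, 7.59 and 5.99 TPM), while 11 of 12 epithelial markers, among them Epcam, Krt8 and Krt14, did not reach the filter and Krt19, the exception, read 0, 0.867 and 0.417 TPM in Control and 2.69, 2.17 and 3.61 TPM at MCE1. The epithelial list summed to 1.32 to 2.52 TPM over the Control libraries and to 2.17 to 3.61 TPM over those of MCE1, and its part in the level of Sprr1b and Krt36 was not tested. The second set held Ccn2 and Ankrd1 and, with them, Nlrp2 (15, 16.0 and 14.2 TPM in Control), Siglecg (16.3, 15.3 and 13.2 TPM), Slco4a1 (6.98, 5.50 and 5.73 TPM), Wincr1 (13.7, 12.2 and 12.1 TPM) and Ngef (5.90, 6.44 and 6.69 TPM). No fold change is given for these genes.

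Several of the steepest changes lay outside the lists. Rgs4, which like Rgs2 shortens G protein signals, read 59.8, 63.3 and 68.5 TPM in Control and 2.32, 2.68 and 1.79 TPM at MCE1, opposite in direction to Rgs2 (adjusted p = 2.28e-07 for a log2 fold change of -4.32 ± 0.12). Cck, the gut and brain hormone cholecystokinin, fell from 78.1 ± 4.19 to 3.64 ± 0.521 TPM, and Pla2g7, which breaks down platelet-activating factor, from 77.5 ± 0.848 to 3.19 ± 0.627 TPM. Anxa3 (from 358 ± 26.9 to 11.5 ± 1.26 TPM), Megf10 (from 42.1 ± 2.48 to 0.608 ± 0.154 TPM), Klhdc8a (from 46.3 ± 2.97 to 0.734 ± 0.210 TPM) and Fgd3 fell as well, and Fgd3 read 21.2, 19.3 and 19.5 TPM in Control and 0, 0 and 0.253 TPM at MCE1. Among the rises, Apod, a lipocalin, read 0.533, 0.943 and 0.927 TPM in Control and 45.4, 52.2 and 58.3 TPM at MCE1 (4.88 ± 0.14). Prg4 (lubricin) rose from 0.248 ± 0.0321 to 30.7 ± 1.64 TPM and Wfdc12 read 0, 0.642 and 0 TPM in Control and 44.0, 44.3 and 52.5 TPM at MCE1. Apod, Prg4 and Wfdc12 met the filter only through MCE1, and Megf10, Klhdc8a and Fgd3 only through Control, so that their direction was set by the filter. Cdo1, cysteine dioxygenase, rose from 3.07 ± 0.163 to 91.4 ± 3.62 TPM. In absolute level, S100a4 (from 4532 ± 126 to 2005 ± 30.1 TPM), Lgals1 (from 4029.8 ± 99.8 to 1892 ± 39.9 TPM) and Ptn (from 3093 ± 242 to 1722 ± 118 TPM) were among the 10 largest falls in mean TPM, and Ifitm2 (from 649 ± 27.8 to 1683 ± 97.6 TPM) among the 10 largest rises.

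The next step, from MCE1 to MCE2, shows where the lists went from there. MCE2 against MCE1 called 5328 of the same 11605 genes (45.9%), 2109 higher (18.2%) and 3219 lower (27.7%), in a fit on all 18 libraries. Changes of at least 1 log2 unit were called in 308 genes higher (2.65%) and 602 lower (5.19%). Median-ratio scaling made this split 2644 and 2681, and quantile normalization 2728 and 2584. Both steps share the MCE1 libraries, so values are given side by side only. Replication genes, 30 of 50 higher at the first step, were lower in 47 and higher in 0 at the next (medians 0.29 and -1.15), and mitosis genes were lower in 43 of 43 (medians 0.25 and -1.70). Top2a went from 572 ± 26.5 to 243 ± 19.1 TPM. Mature fat cell genes rose at both steps, 24 and then 25 of 28. Cholesterol genes, 22 of 28 lower at the first step, were higher in 13 and lower in 4 at the next. The contractile list, 26 of 27 lower, had 10 lower and 3 higher members at the next step, and Acta2 stood at 6.94 ± 1.03 TPM at MCE1 and 5.65 ± 0.638 TPM at MCE2. Glucocorticoid-responsive genes had a median of 2.67 and then of 0.18. Fstl1 and Nid1, which had risen, fell at the next step, Fstl1 from 1467 ± 17.0 to 689 ± 58.7 and Nid1 from 962 ± 91.7 to 414 ± 18.6 TPM (-1.09 ± 0.06 and -1.21 ± 0.11). Ccl2 fell again, to 5.56 ± 0.654 TPM (-3.33 ± 0.13).

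**Figure D4:**
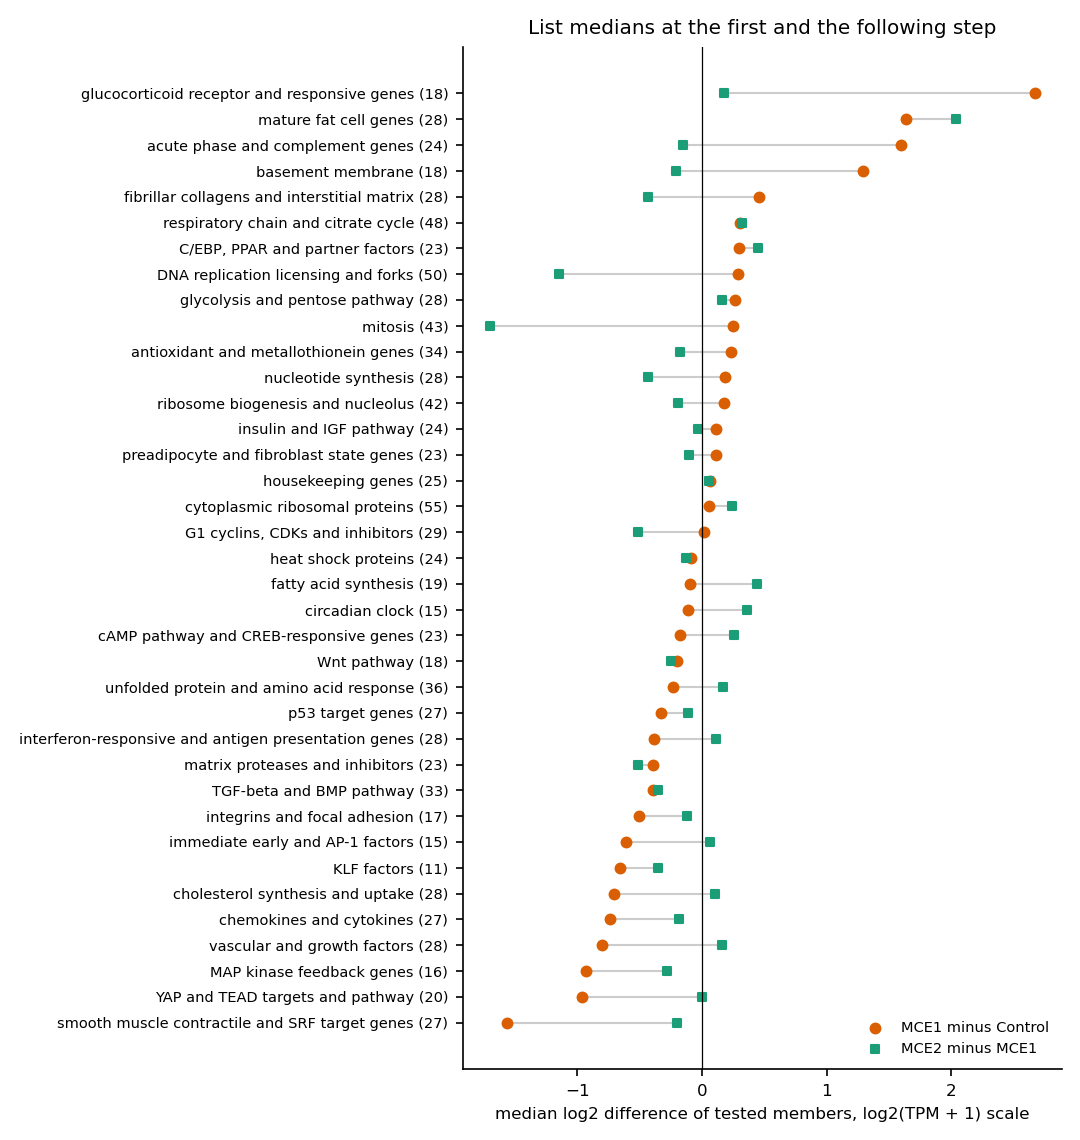
Median log2 difference of the tested members of each list (horizontal axis, log2(TPM + 1) scale) for MCE1 minus Control (orange circles) and MCE2 minus MCE1 (green squares), for lists with at least 5 tested members. The circles spread from -1.57 to 2.67, and replication and mitosis pass from 0.29 and 0.25 to -1.15 and -1.70.

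The plot across all 6 groups shows the later levels of genes that changed at MCE1. Lcn2 was highest at MCE1 and stood at 358 ± 27.2 TPM at Day4 and 106 ± 18.6 at Day8. Rgs2 stayed between 181 ± 8.62 and 227 ± 20.9 TPM in the later groups, and the mean of Acta2 was highest, among the later groups, at Day6, with 20.2 ± 4.14 TPM. Cyp51, a sterol demethylase, stood lowest at MCE1 (37.9 ± 0.648 TPM) and at 169.9 ± 4.09 TPM at Day4, and Egr1 read 48.9 ± 4.75 TPM at Day6 after 7.75 ± 1.77 at MCE1.

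**Figure D5:**
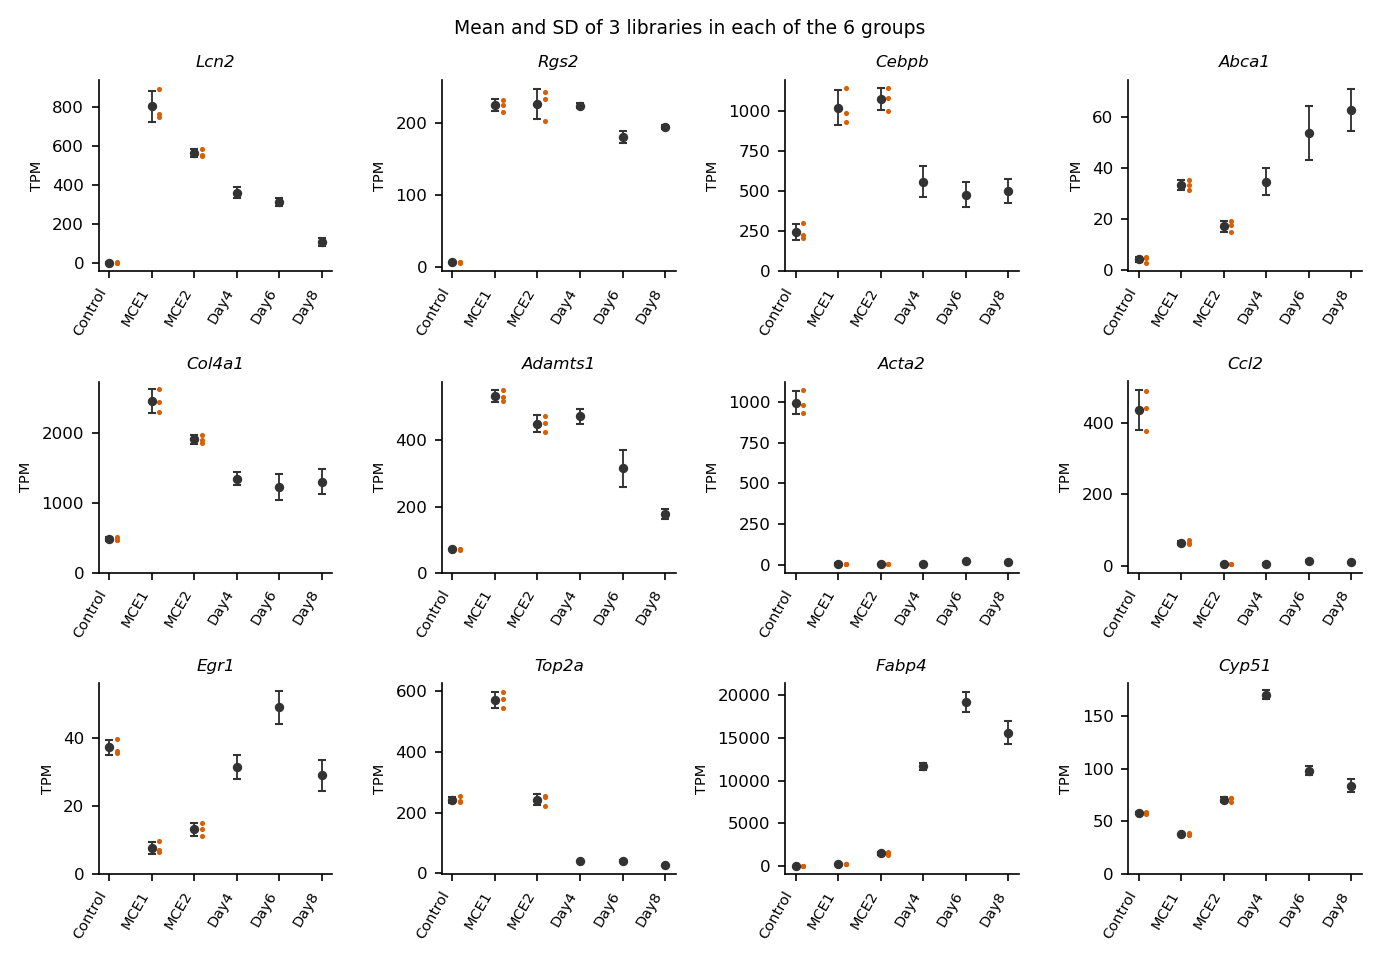
TPM (vertical axes) of 12 genes in the 6 groups, as mean (black point) and SD (bar) of 3 libraries, with the single libraries of Control, MCE1 and MCE2 in orange. Acta2 and Ccl2 are high in Control alone, Lcn2, Col4a1 and Top2a are highest at MCE1, and Fabp4 reaches its high levels from Day4.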

How the data were processed

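Polyadenylated RNA was extracted with TRIzol and made into libraries with the NEBNext Ultra II RNA kit, per the labels' protocols. FastQC, cutadapt, HISAT2 and StringTie were used on the mm9 build, per the submitters' processing notes, and their versions and the annotation are not given in the sources used here. The authors deposited TPM values per gene, 1 table per library. The listed genes summed to 869497 to 874183 TPM in the 6 libraries, and since TPM keeps no depth, the counting error of a value is unknown. Groups came from the titles.

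Values were tested as log2(TPM + 1) with limma 3.58.1 (trend and robust options) in R 4.3.3, on the 6 libraries of MCE1 and Control, for genes at 1 TPM or more in at least 3 of them. A gene was called at a Benjamini-Hochberg adjusted p under 0.05. The fit had 4 residual degrees of freedom. A fold change is on the log2(TPM + 1) scale, which understates the change of low genes. MCE2 against MCE1 was tested on the same genes in a fit on all 18 libraries. The code was tested on simulated data. Left out of all fits were 12 genes, Ppia among them, that were listed at another locus in Control replicate 1.

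Named genes were the 15 highest and 15 lowest log2 fold changes among genes whose group ranges do not overlap and whose higher mean is 10 TPM or more, the 10 largest rises and falls in mean TPM, genes listed at 0 in each library of a group and at 5 TPM or more in the other, and members of 43 gene lists (1225 genes, 989 tested). Up to 8 called members in each direction and up to 4 others were eligible per list. Some eligible genes are not reported here. The members and lists were chosen with earlier results of these data known. Alternatives changed the pseudocount, filter, scaling, weights, moderation, block, genes, libraries and fold minimum. Promoters came from RefSeq's GRCm38.p6 table and were searched on both strands, and files' positions are mm9.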

Additional observations from a re-analysis of the deposited data

How the results depend on the processing

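Asking in addition for a change of 1 log2 unit or more left 578 genes higher and 1150 lower at MCE1, and 308 higher and 602 lower at MCE2 against MCE1. By construction this asks for more than the test does. Under the other alternatives all 4 counts stayed within 1.5 times. Median-ratio scaling gave 3650 higher and 3691 lower at MCE1, quantile normalization 3749 and 3506, shifting the median of all genes by 0.064 and 0.094 log2 units. Leaving out 1 library gave 2844 to 3018 higher and 3800 to 3948 lower at MCE1, and 1844 to 2084 higher and 2658 to 3170 lower at MCE2 against MCE1. With the replicate number as a block, 2956 genes were higher and 3943 lower at MCE1, and 2087 and 3213 at MCE2. The numbers do not pair the samples: deviations of same-numbered libraries correlated at 0.004, -0.011 and 0.015, and 1 of 3 Control libraries correlated best with its own number.

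Of 358 genes named and tested, 349 kept their call under every alternative other than the fold minimum. The 9 that did not were Akt1, Cdkn1a, Csrp2, Eef1a1, Mdm2, Mki67, Myc, Pparg and Yap1. The cause was not tested. Depth is unknown, so no value has a counting interval.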

Other observations

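Genes that mark the fibroblast and preadipocyte state went both ways, with 10 of 23 tested higher and 8 lower (43.5% higher and 34.8% lower, against 27.0% and 35.7% of all genes; median 0.11). Gas6, a ligand of the receptor Axl, rose from 96.2 ± 4.27 to 728 ± 3.61 TPM (adjusted p = 3.89e-08 for a log2 fold change of 2.91 ± 0.04), while Axl itself fell. The Notch pathway genes that rose included the receptor Notch1 from 5.25 ± 0.694 to 21.4 ± 0.655 TPM (1.84 ± 0.10) and the ligand Jag1 from 12.8 ± 1.04 to 38.2 ± 0.844 TPM (1.51 ± 0.07). Of the Hedgehog factors Gli2 rose from 8.82 ± 0.996 to 24.6 ± 1.15 TPM and Gli1, a target of the pathway, fell from 3.58 ± 0.769 to 1.34 ± 0.165 TPM. Pi16, known from fibroblast progenitors, rose from 3.79 ± 1.28 to 21.1 ± 0.344 TPM.

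Genes often used to scale other measurements were not all level between both groups. Of 25 tested 11 rose and 6 fell (44.0% higher and 24.0% lower, against 27.0% and 35.7% of all genes; median 0.06). Actb fell by 1.42, Rab7 from 505 ± 4.06 to 309 ± 3.35 TPM and B2m by 0.60, while Emc7 rose from 179 ± 7.78 to 323 ± 7.42 TPM, Psmb4 from 499 ± 21.9 to 705 ± 14.9 TPM and Gapdh from 307 ± 7.39 to 398 ± 20.2 TPM. Tbp (-0.09 ± 0.06), Chmp2a (-0.02 ± 0.04) and Gusb (-0.02 ± 0.07) were not called.

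Of 28 tested enzymes of nucleotide synthesis 16 rose and 6 fell (57.1% higher and 21.4% lower, against 27.0% and 35.7% of all genes; median 0.18). In the purine pathway Impdh2 rose from 278 ± 5.83 to 403 ± 3.38 TPM, and Paics (-0.45 ± 0.05) and Impdh1 (-0.46 ± 0.09) fell.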
